A study of Mus musculus with 8 samples.

Results

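The mRNAs of 10 AP-1 and immediate early genes were followed in epithelial cells sorted from mouse small intestine. The members were the rows whose Ensembl IDs carry the symbols Fos, Fosb, Fosl2, Jun, Junb, Jund, Atf3, Egr1, Ier2 and Dusp1, which are 10 of the 37620 gene rows in each deposited table. All 10 had enough reads to be tested, within 12840 tested genes. RNA sequencing covered 8 libraries, made from total RNA with the TruSeq RNA kit. The first population, CD24Mid (4 libraries, replicates 1, 3, 5 and 7), had intermediate surface CD24, a glycoprotein of crypt base cells, and the submitters also call it CD24low. The second, CD24Neg (4 libraries, replicates 2, 4, 6 and 8), was negative for it. In both populations, cells carrying the leukocyte antigen CD45, and cells bound by Ulex europaeus lectin, a stain of secretory cells, had been removed. The submitters describe the libraries of each population as biological replicates, and the labels give no genotype, strain, age, sex or treatment.

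AP-1 is a transcription factor built as a dimer of basic leucine zipper proteins. Fos proteins cannot pair with themselves and need a Jun partner, while Jun proteins can also pair with each other. Immediate early genes are transcribed within minutes of a stimulus without new protein synthesis, mostly through MAP kinases acting on serum response factor, its Ets partners and CREB, and their mRNAs are short-lived. In the gut, Jun and its kinase JNK are known for a role in crypt cell proliferation. Transcripts of this class are also known to rise while tissue is dissociated into single cells, and every library here came from dissociated and sorted cells.

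The 250 bases before the RefSeq start are shown for the pairs of paralogs whose levels are compared most closely below, Fos with Fosb and Jun with Junb, and for Dusp1. Capitals mark matches on either strand to the cAMP response element TGACGTCA, its core TGACG, the Jun promoter element TGACATCA or the TATA box TATAAA. The sequences are those of RefSeq on GRCm38.p6, at chr12:85473640-85473889 (plus strand) for Fos, chr7:19310046-19310295 (minus) for Fosb, chr4:95052223-95052472 (minus) for Jun, chr8:84978749-84978998 (minus) for Junb and chr17:26508473-26508722 (minus) for Dusp1.
Fos: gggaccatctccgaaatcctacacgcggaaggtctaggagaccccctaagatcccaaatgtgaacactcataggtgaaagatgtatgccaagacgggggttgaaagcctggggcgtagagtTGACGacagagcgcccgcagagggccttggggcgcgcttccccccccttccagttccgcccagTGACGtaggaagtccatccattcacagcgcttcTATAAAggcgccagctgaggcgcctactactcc
Fosb: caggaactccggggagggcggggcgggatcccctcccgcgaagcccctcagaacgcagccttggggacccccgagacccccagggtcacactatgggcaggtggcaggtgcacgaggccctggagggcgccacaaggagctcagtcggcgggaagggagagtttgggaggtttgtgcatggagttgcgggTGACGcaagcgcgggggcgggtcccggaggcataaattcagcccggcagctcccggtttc
Jun: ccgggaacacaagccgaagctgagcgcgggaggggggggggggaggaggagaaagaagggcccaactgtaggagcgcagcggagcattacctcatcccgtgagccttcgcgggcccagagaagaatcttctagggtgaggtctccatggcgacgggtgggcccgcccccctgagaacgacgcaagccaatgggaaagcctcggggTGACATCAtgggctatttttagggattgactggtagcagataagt
Junb: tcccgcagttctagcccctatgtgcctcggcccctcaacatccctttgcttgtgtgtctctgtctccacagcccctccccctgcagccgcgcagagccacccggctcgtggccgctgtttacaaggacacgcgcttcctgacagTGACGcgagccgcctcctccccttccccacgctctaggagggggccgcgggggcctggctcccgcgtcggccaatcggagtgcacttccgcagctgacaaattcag
Dusp1: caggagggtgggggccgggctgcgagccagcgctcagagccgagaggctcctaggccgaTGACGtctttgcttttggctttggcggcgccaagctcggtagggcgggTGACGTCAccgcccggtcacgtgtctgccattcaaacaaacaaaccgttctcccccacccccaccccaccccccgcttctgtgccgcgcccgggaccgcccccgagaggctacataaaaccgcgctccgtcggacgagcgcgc
A window was found for 8 of the 10 genes (not for Egr1 and Ier2). The RefSeq start behind the Jund window lies 1210 bases from the nearest GENCODE M21 start and that of Fosl2 299 bases, so these windows, neither of which held any of the motifs, may miss the promoter used, while the other 6 starts lie within 30 bases. The core TGACG was present in 5 of these 8 windows, those of Fos, Fosb, Junb, Atf3 and Dusp1, against 17.8% of all 32851 RefSeq windows of that length. The full element TGACGTCA, which contains the core, was found in the Dusp1 window alone, against 1.55% of all windows, and begins 143 bases before the start. TGACATCA was found in the Jun window alone, against 2.93% of all windows. The Fos window holds the core at 129 and 66 bases and TATAAA at 33 bases before the start, while the Fosb window holds the core at 60 bases. None of the 8 windows held the AP-1 site TGAGTCA (4.46% of all windows), the serum response element known as the CArG box (1.47%) or the Egr1 site GCGTGGGCG (0.536%). Sites farther than 250 bases before the start were not searched, so this absence does not show that a gene lacks the element. The core and the Jun promoter element were added to the search after the sequences were seen, and a match describes letters in this window, not a bound factor.

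Each CD24Mid library held 15473071 to 17537818 gene-unique counts and each CD24Neg library 11340782 to 18928233, and each member had at least 545 reads in every library. Levels are given as CPM, read counts brought to a common library size with trimmed mean of M values (TMM) factors. The sorted gene Cd24a averaged 194 ± 43.4 CPM over the 4 CD24Mid libraries and 28.6 ± 8.37 CPM over the 4 CD24Neg libraries (SD). All 8 crypt stem and dividing cell markers were higher in CD24Mid and all 9 enterocyte markers in CD24Neg. Mitochondrially encoded genes took 8.03% to 9.18% of counts in CD24Mid and 27.7% to 37.0% in CD24Neg. Of 12 T and NK lymphocyte markers 11 were higher in CD24Neg, where their summed level was 737, 42.7, 117 and 557 CPM in replicates 2, 4, 6 and 8, against 10.6 to 29.3 CPM in CD24Mid. None of these 12 markers was without reads, and Gzma was the most abundant. The 7 plasma and B cell markers summed to 395 to 1012 CPM in CD24Mid and 22.6 to 53.8 CPM in CD24Neg. Of secretory types, goblet cell markers summed to 3264 to 5211 CPM in CD24Mid and 12157 to 34284 CPM in CD24Neg, and enteroendocrine markers, 5 of 7 of them higher in CD24Mid, to 259 to 571 CPM in CD24Mid and 76.5 to 113 CPM in CD24Neg. Of 11 stromal, endothelial and muscle markers 9 were under 1 CPM in all 8 libraries. In such bulk samples, fewer cells of a type and less RNA per cell cannot be told apart.

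These mRNAs were abundant in both populations, and the called genes went in both directions. Fosb and Egr1 were higher in CD24Mid, and Junb, Fosl2 and Jund were higher in CD24Neg, by edgeR's quasi-likelihood test at an adjusted p under 0.05. Fos, Jun, Atf3, Ier2 and Dusp1 did not pass. These 5 called genes of 10 stand against 69.8% of all genes tested, the 2 higher in CD24Mid against 35.5% and the 3 higher in CD24Neg against 34.3%. The CPM of the groups did not overlap for 2 genes, Fosl2 and Junb, both higher in CD24Neg, against 64.4% of all genes tested in either direction and 31.4% in that one. The median log2 fold change (CD24Mid over CD24Neg throughout) was -0.097 over the members and 0.015 over all genes tested. The largest change, that of Junb, was exceeded in size by 34.9% of the tested genes. By mean abundance, 7 of the 10 lay within the top 5% of tested genes, with Fos at percentile 99.2 and Jun at percentile 99.0.

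**Figure D1:**
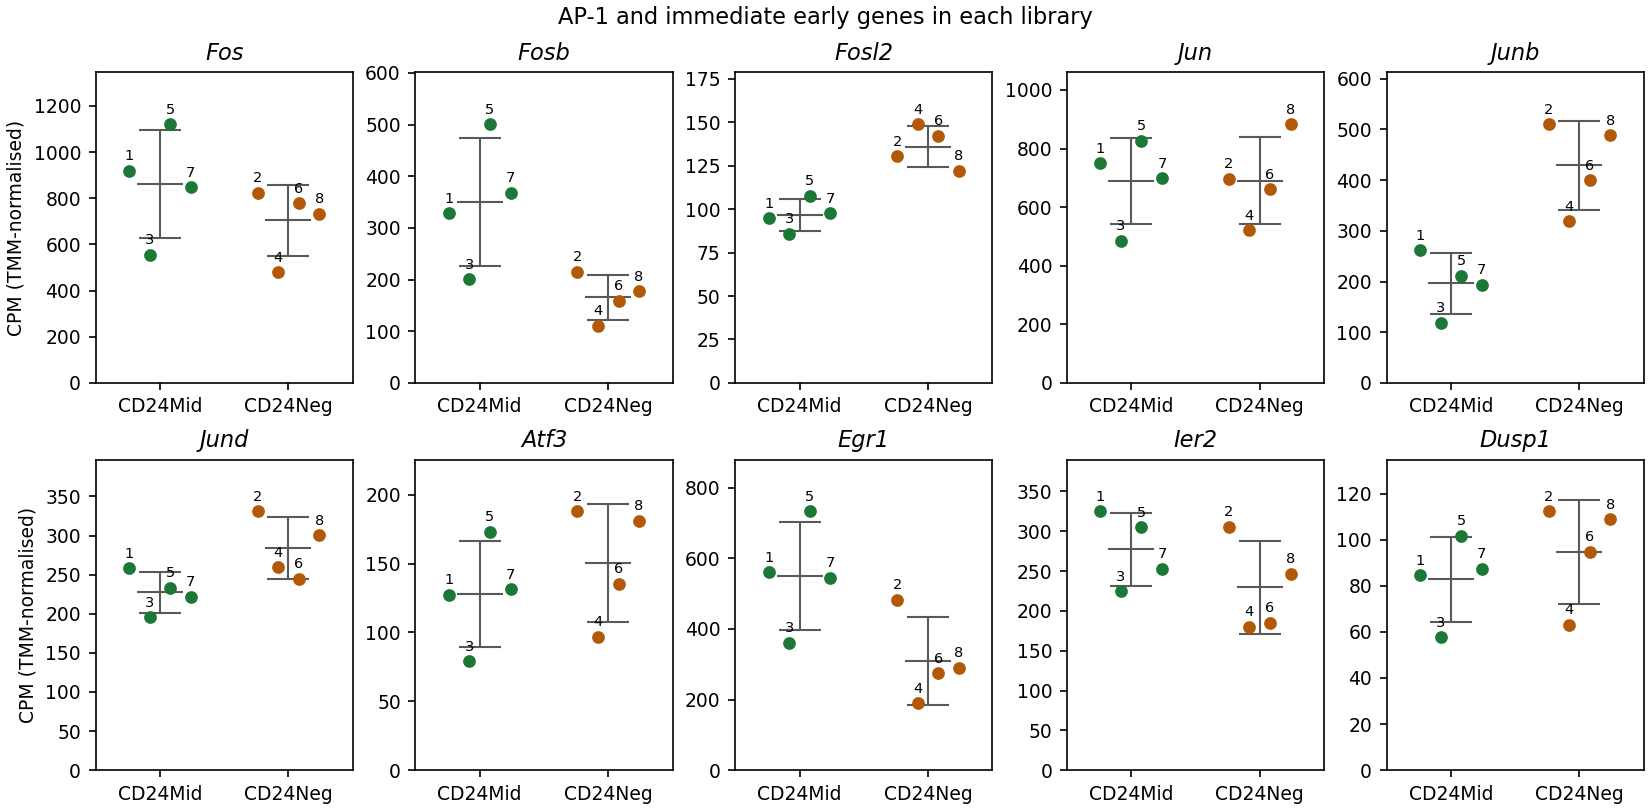
Normalised level (CPM, linear axis from 0) of each of the 10 genes in the 4 CD24Mid libraries (green) and the 4 CD24Neg libraries (orange), with replicate numbers, the mean and the SD. The groups are apart for Fosl2 and Junb and overlap for the other genes; replicate 3 is the lowest CD24Mid library in all 10 panels.

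Among the Fos genes, Fos itself was the most abundant, and the difference between populations did not pass the test. It stood at 918, 556, 1122 and 847 CPM in CD24Mid replicates 1, 3, 5 and 7, against 824, 479, 779 and 734 CPM in CD24Neg replicates 2, 4, 6 and 8. The groups overlapped, CD24Mid replicate 5 being the highest and CD24Neg replicate 4 the lowest of all 8 libraries. Fos had a log2 fold change of 0.29 ± 0.23 SE (adjusted p = 0.28, edgeR).

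Fosb, a Fos paralog that is also induced at once by stimuli, was 2.11-fold higher in CD24Mid. Its level was 328, 200.2, 501 and 368 CPM in CD24Mid and 215, 111, 159 and 178 CPM in CD24Neg, in the same order of replicates. The lowest CD24Mid library, replicate 3, lay just below the highest CD24Neg library, replicate 2, so the groups overlapped by this pair alone. Fosb had a log2 fold change of 1.08 ± 0.27 SE (adjusted p = 0.0041, edgeR), which was 1.40 without CD24Neg replicates 2 and 8, the libraries with the most lymphocyte reads (adjusted p = 0.0085, edgeR). Within CD24Neg, replicates 2 and 8 also had the highest mitochondrial shares (35.2% and 37.0%, against 27.7% and 28.3%) and the lowest summed enterocyte markers. Their removal leaves replicates 4 and 6 alone in CD24Neg, and which trait matters was not tested.

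Fosl2, which encodes Fra-2, a family member without the strong activation domain of Fos, went the other way. It stood at 94.8, 85.9, 108 and 97.6 CPM in CD24Mid and at 131, 149, 142 and 122 CPM in CD24Neg. The groups did not overlap, and the level was 1.41-fold higher in CD24Neg (log2 fold change -0.49 ± 0.11 SE, adjusted p = 0.0018, edgeR), a direction that turned on unscaled library totals. Fosl1, the remaining Fos paralog and no member here, was scarce, with 100 reads over the 4 CD24Mid libraries and 13 over the 4 CD24Neg libraries.

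In the Jun family, Junb and Jund passed the test and Jun did not. Jun, the main partner of Fos, averaged 690.4 ± 147 CPM over the 4 CD24Mid libraries and 690.6 ± 149 CPM over the 4 CD24Neg libraries (SD), with values of 751, 485, 827 and 699 CPM in CD24Mid and 697, 521, 661 and 884 CPM in CD24Neg. Its log2 fold change was -0.00042 ± 0.20 SE (adjusted p = 0.999, edgeR), and its sign varied between alternatives.

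Junb, which competes with Jun for partners and is known to restrain Jun-driven transcription, was 2.19-fold higher in CD24Neg. It stood at 262, 118, 211 and 193 CPM in CD24Mid, against 511, 319, 399.9 and 489 CPM in CD24Neg. Every CD24Neg library was above every CD24Mid library. Junb had a log2 fold change of -1.13 ± 0.23 SE (adjusted p = 0.0012, edgeR), and -0.86 without CD24Neg replicates 2 and 8 (adjusted p = 0.023, edgeR). Junb overlaps the peroxidase gene Prdx2 on the opposite strand, and the annotation and strand setting of the counting are not stated. Estimates that include shared reads were 0.994 to 0.997 times the unique counts of Junb. Depending on that annotation, reads of the other strand could also count as unique to Junb. The ratio therefore cannot decide this, and the part of Prdx2 reads was not tested. On unscaled library totals the Junb call was lost (log2 fold change -0.18, adjusted p = 0.45, edgeR).

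Jund, the least inducible of the Jun genes, differed by 1.25-fold, and this call was the weakest. Its level was 259, 195, 233 and 222 CPM in CD24Mid and 331, 259, 245 and 301 CPM in CD24Neg, with overlap between the groups. Its log2 fold change was -0.32 ± 0.13 SE (adjusted p = 0.049, edgeR), and it turned to 0.62 on library totals. The call was lost when CD24Mid replicate 3, 5 or 7 or CD24Neg replicate 2, 4 or 8 was left out, with an adjusted p of 0.080 to 0.19. It was also lost without both CD24Neg replicates 2 and 8 (log2 fold change -0.13, adjusted p = 0.44, edgeR), with upper-quartile factors (-0.10, adjusted p = 0.52, edgeR), without a filter on low counts (-0.22, adjusted p = 0.20, edgeR), without mitochondrial genes (-0.29, adjusted p = 0.068, edgeR) and on estimated counts with shared reads (-0.32, adjusted p = 0.052, edgeR). Those estimates were 1.25 to 1.26 times the unique count for Jund, and 0.993 to 1.03 times for the other 9 genes. Jund overlaps Gm11175 on the opposite strand, which had 0 unique reads.

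Atf3, a stress-induced basic leucine zipper protein that pairs with Jun proteins, did not pass. It stood at 127, 79.2, 173 and 132 CPM in CD24Mid and at 188, 96.8, 135 and 181 CPM in CD24Neg, where replicates 2 and 8 were the highest. The Atf3 log2 fold change of -0.23 ± 0.25 SE (adjusted p = 0.42, edgeR) turned to 0.16 without those libraries (adjusted p = 0.65, edgeR).

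The zinc finger factor Egr1, a direct target of ERK signalling through serum response factor, was 1.78-fold higher in CD24Mid. It stood at 560.1, 361, 733 and 545 CPM in CD24Mid and at 483, 189, 275 and 289.9 CPM in CD24Neg. CD24Mid replicate 3 lay below CD24Neg replicate 2, and all CD24Mid libraries lay above the other CD24Neg libraries. Egr1 had a log2 fold change of 0.83 ± 0.28 SE (adjusted p = 0.021, edgeR). The call was lost without CD24Mid replicate 5 (log2 fold change 0.66, adjusted p = 0.065, edgeR), and the value was 1.27 without CD24Neg replicates 2 and 8 (adjusted p = 0.0058, edgeR).

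Ier2, a nuclear protein of the same rapid response, stood at 325, 225, 305 and 253 CPM in CD24Mid and at 305, 180.3, 185 and 246 CPM in CD24Neg. Ier2 did not pass, with a log2 fold change of 0.27 ± 0.19 SE (adjusted p = 0.21, edgeR). It passed without CD24Neg replicate 2 (log2 fold change 0.48, adjusted p = 0.028, edgeR), without CD24Neg replicates 2 and 8 (log2 fold change 0.62, adjusted p = 0.014, edgeR) and under upper-quartile factors (0.49, adjusted p = 0.040, edgeR).

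Dusp1 encodes a phosphatase that switches off p38, JNK and ERK and so closes the response. It stood at 84.6, 57.7, 102 and 87.5 CPM in CD24Mid and at 112, 63.1, 94.8 and 109 CPM in CD24Neg. Dusp1 did not pass, with a log2 fold change of -0.19 ± 0.20 SE (adjusted p = 0.42, edgeR), which turned to 0.089 without CD24Neg replicates 2 and 8 (adjusted p = 0.77, edgeR).

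**Figure D2:**
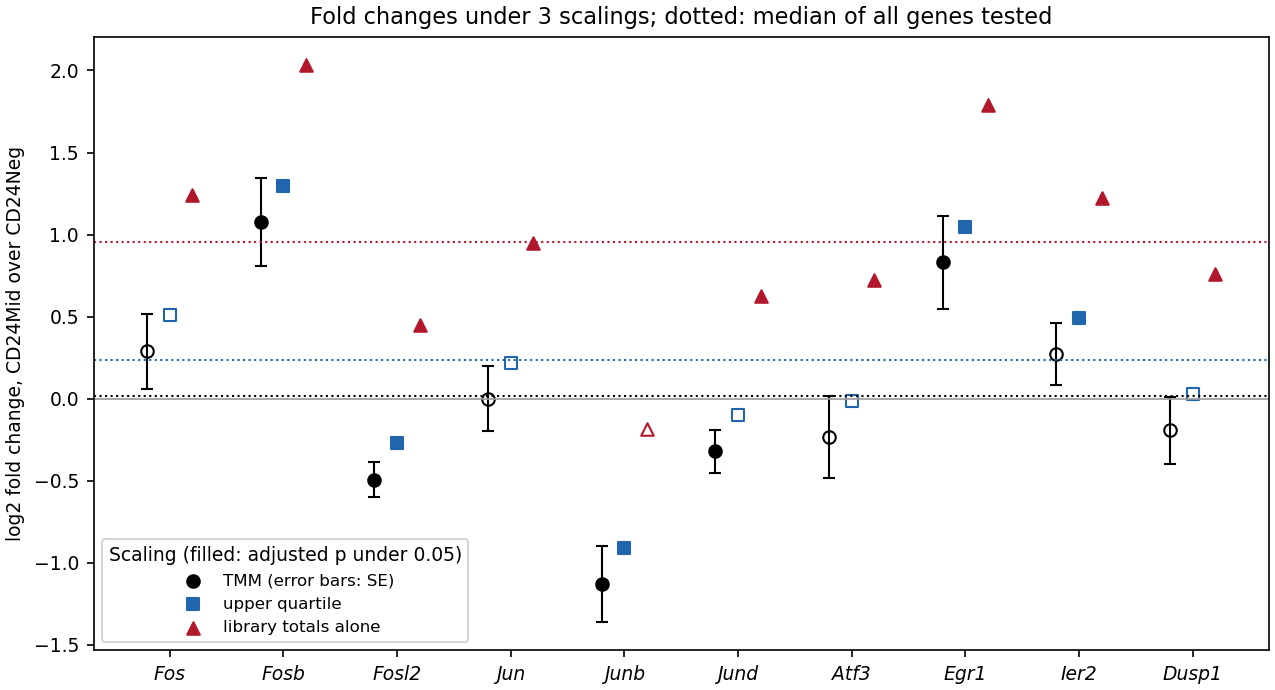
Log2 fold change of each gene, CD24Mid over CD24Neg, with TMM scaling (black, SE bars), upper-quartile scaling (blue) and library totals alone (red). Filled symbols have an edgeR adjusted p under 0.05 and dotted lines give the median of all genes tested under each scaling. Fosb and Egr1 lie above that line and Junb and Fosl2 below it under all 3. A change of scaling moves the genes and the line nearly alike, so this order is no check of the calls.

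Calls depended on the scale of comparison, also for Junb, the largest change among the members. On library totals alone the median log2 fold change of all tested genes was 0.96, and with upper-quartile scaling it was 0.24. On totals 9 members were called higher in CD24Mid and 0 in CD24Neg, against 69.8% and 12.9% of all genes tested (82.7% in all). There Fosl2 and Jund turned to log2 fold changes of 0.45 and 0.62, both below the median of all genes. Fosb at 2.04 and Egr1 at 1.79 stayed above that median, and Junb at -0.18 stayed below it but did not pass (adjusted p = 0.45, edgeR). A change of scaling moves all genes by nearly the same amount. A gene's side of the median was thus fixed beforehand and is no check of its call. With upper-quartile scaling 3 members (Fosb, Egr1 and Ier2) were higher in CD24Mid and 2 (Junb and Fosl2) in CD24Neg, against 43.6% and 27.3% of all genes tested (70.9% in all). Without CD24Neg replicates 2 and 8 the same 3 and 2 genes were called, against 33.7% and 30.0% of all genes tested (63.7% in all).

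Ratios of reads within a library do not depend on any scaling between libraries. Per 100 reads of Fos, Junb had 28.5, 21.3, 18.8 and 22.8 reads in CD24Mid and 62.0, 66.7, 51.3 and 66.6 reads in CD24Neg. Fosb had 35.7 to 44.7 reads per 100 of Fos in CD24Mid and 20.4 to 26.1 in CD24Neg. The Fosb and Junb ratios thus lay wholly apart between the populations, in opposite directions. Egr1 kept a narrow ratio to Fos in CD24Mid, at 61.0 to 65.4 reads per 100, and had 35.3 to 58.6 in CD24Neg. Dusp1 had 9.08 to 10.4 reads per 100 of Fos in CD24Mid and 12.2 to 14.8 in CD24Neg, while Atf3 had 13.9 to 15.5 in CD24Mid and 17.4 to 24.7 in CD24Neg. The Fosl2 ratio was 9.61 to 15.5 in CD24Mid and 15.8 to 31.1 in CD24Neg. In all, 6 of 9 ratios to Fos did not overlap between the populations, 2 higher in CD24Mid and 4 in CD24Neg, against 38.5%, 14.1% and 24.4% of the other tested genes. The ratios of Jun, Jund and Ier2 overlapped. Set against Junb, the gaps were wider. Fosb had 125 to 237 reads per 100 of Junb in CD24Mid and 34.6 to 42.1 in CD24Neg. Egr1 had 214 to 347 reads per 100 of Junb in CD24Mid and 59.3 to 94.6 in CD24Neg. The denominators were chosen after the data were seen, and the ratios carry no test.

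**Figure D3:**
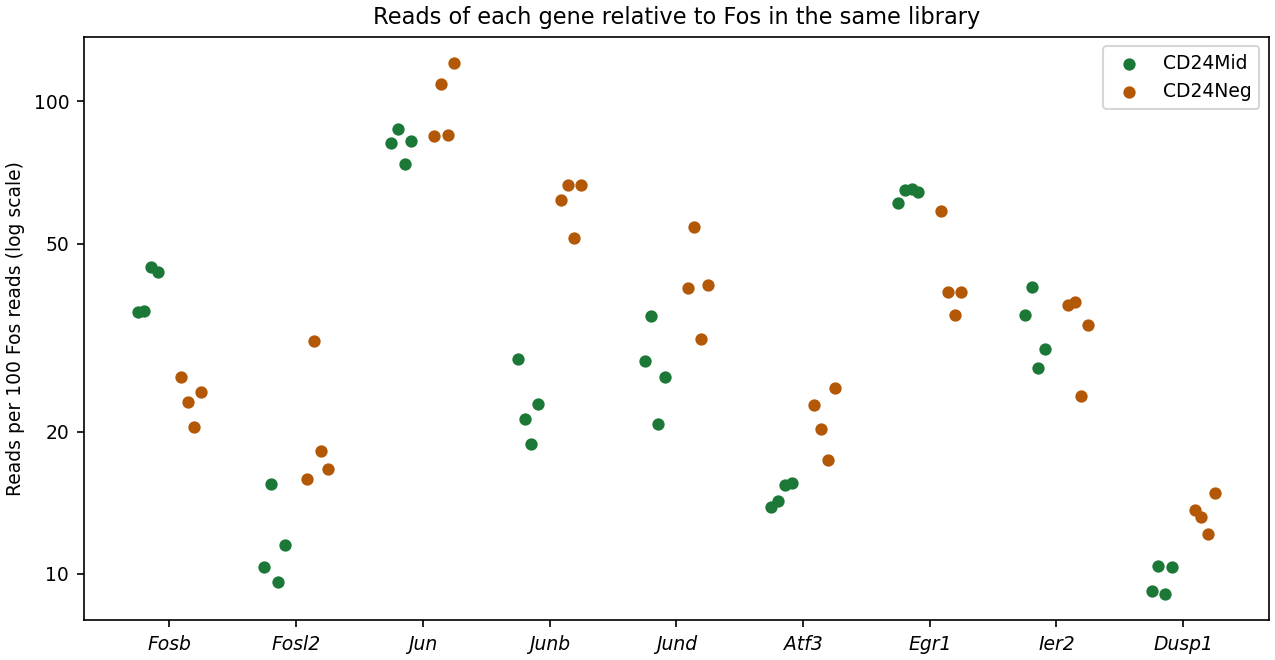
Reads of each of 9 genes per 100 Fos reads in the same library (log axis), for the 4 CD24Mid (green) and 4 CD24Neg (orange) libraries. Fosb and Egr1 are higher in CD24Mid without overlap, Fosl2, Junb, Atf3 and Dusp1 are higher in CD24Neg without overlap, and Jun, Jund and Ier2 overlap.

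Levels per kilobase of effective length allow the genes to be ranked against each other. They rest on unique counts, and Jund estimates with shared reads were 1.25 to 1.26 times its unique count. The rank of Jund may therefore be too low. Fos was first in both populations, at 539.7 ± 143 CPM per kilobase in CD24Mid and 438 ± 99.2 in CD24Neg (SD, n = 4 each). In CD24Mid, Jun at 309 ± 68.3, Ier2 at 236 ± 40.1 and Egr1 at 214 ± 58.4 followed, and Jund, Junb, Fosb, Atf3, Dusp1 and Fosl2 came after them. Neighbours in that order, from Jun to Junb at 138 ± 42.4, differed by less than the sum of their SDs. These SDs pass over the shared libraries, and within each CD24Mid library Jun stood above Ier2 and Egr1 above Jund. Ier2 and Egr1, and likewise Jund and Junb, changed order between libraries. In CD24Neg, Junb at 301 ± 63.0 stood level with Jun at 298 ± 65.1, followed by Ier2 at 194 ± 50.8, Jund at 184 ± 25.4, Egr1, Atf3, Dusp1, Fosb and Fosl2. By mean, Junb thus had rank 6 in CD24Mid and rank 2 in CD24Neg. Within CD24Neg it stood above Jun in replicate 2 alone, at 360 against 302 CPM per kilobase. Fosl2 was the lowest in both populations, at 19.7 ± 1.84 CPM per kilobase in CD24Mid and 27.6 ± 2.37 in CD24Neg.

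The make-up of each family followed from these levels. Jun made up 52.0 ± 2.96% of the summed per-length level of the 3 Jun genes in CD24Mid and 37.9 ± 3.20% in CD24Neg, while Junb made up 23.0 ± 2.95% in CD24Mid and 38.3 ± 2.07% in CD24Neg (SD, n = 4 each). The Jund share was 25.1 ± 3.47% in CD24Mid and 23.8 ± 2.85% in CD24Neg, with overlap. All these shares, and the ratio of the families below, use unique counts and so may set Jund too low. Within the Fos family, Fosb made up 16.5 ± 1.82% in CD24Mid and 10.2 ± 1.05% in CD24Neg, and Fosl2 made up 3.06 ± 0.679% in CD24Mid and 5.60 ± 1.84% in CD24Neg, each without overlap. Fos itself held 78.9% to 82.1% of its family in CD24Mid and 81.8% to 85.8% in CD24Neg. The summed Fos family stood at 1.03 to 1.32 times the summed Jun family in CD24Mid and 0.586 to 0.783 times in CD24Neg, so the populations did not overlap in this ratio of mRNAs.

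**Figure D4:**
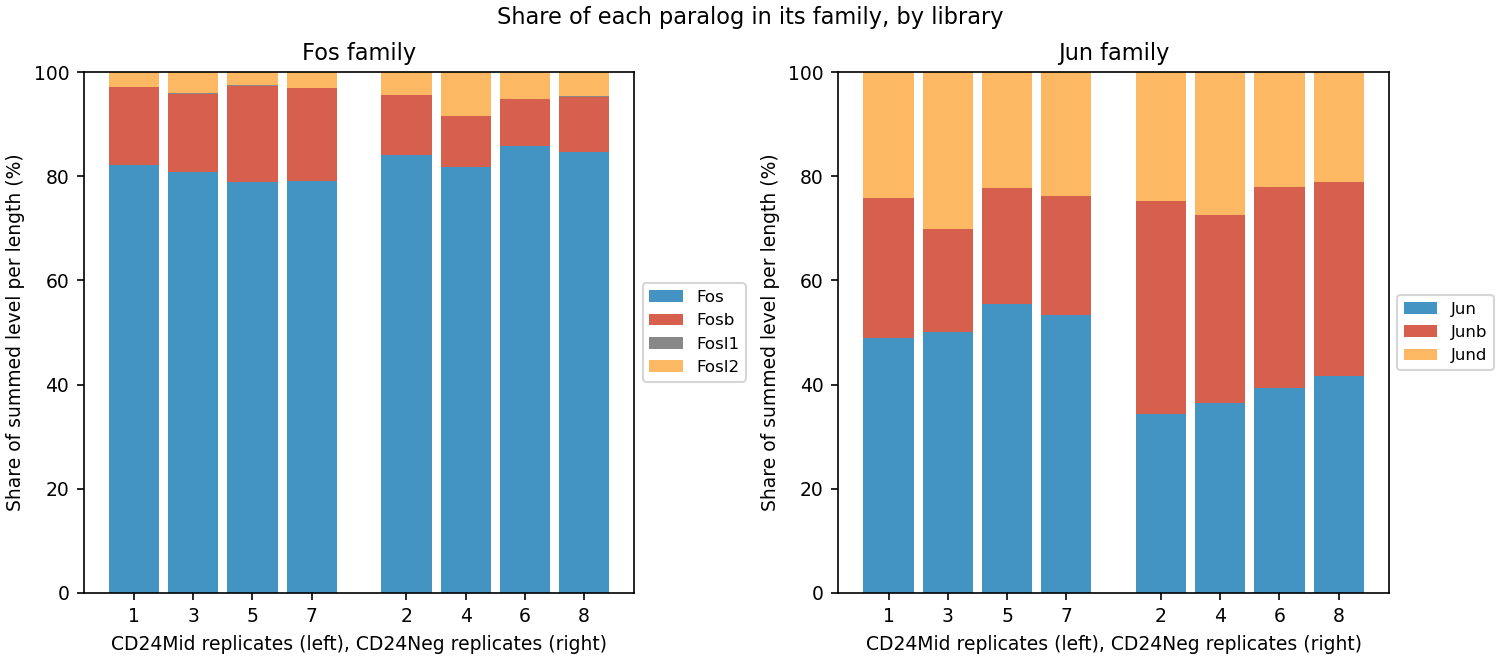
Share (percent) of each paralog in the summed level per effective length of the Fos family (left) and the Jun family (right), 1 bar per library, CD24Mid replicates left of CD24Neg replicates. The Junb share is 19.7% to 26.9% in CD24Mid and 36.2% to 41.0% in CD24Neg; the Fosl1 share is too small to see.

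Within a population the genes largely shared 1 order of libraries. CD24Mid replicate 3 was the lowest of its group for all 10 genes, and replicate 5 was the highest for 7 of them, the others (Junb, Jund and Ier2) being highest in replicate 1. In CD24Neg, replicate 2 was the highest for 8 genes and replicate 4 the lowest for 8, with Fosl2 highest in replicate 4 and lowest in replicate 8. That CD24Mid replicate 3 was lowest for 25 of the 33 other immediate early genes tested. At a mean log2 CPM of 4 or more it was lowest for 17 of 22 of them, against 18.9% of the 7627 tested genes at that level. CD24Neg replicate 4 was lowest for 21 of those 33 genes, for 13 of the 22 and for 17.2% of the 7627. The SD of log2 CPM within CD24Mid had a median of 0.38 over the 10 genes and 0.17 over the 7627, and within CD24Neg medians of 0.36 and 0.18. Lymphocyte markers moved with this order in CD24Neg, where replicate 4 had the least and replicate 2 the most, and in CD24Mid replicate 3 also had the least of them, although replicate 5, the highest for 7 genes, had 12.4 CPM. Paneth cell markers were highest in the same low libraries. They summed to 95.4, 222, 117 and 102 CPM in CD24Mid replicates 1, 3, 5 and 7. In CD24Neg replicates 2, 4, 6 and 8 they summed to 95.9, 272, 76.5 and 115 CPM. The part of either cell type in the spread was not tested. The libraries lowest for most of the genes, CD24Mid replicate 3 and CD24Neg replicate 4, have neighbouring numbers, and the labels do not say whether neighbours share an animal or a day.

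**Figure D5:**
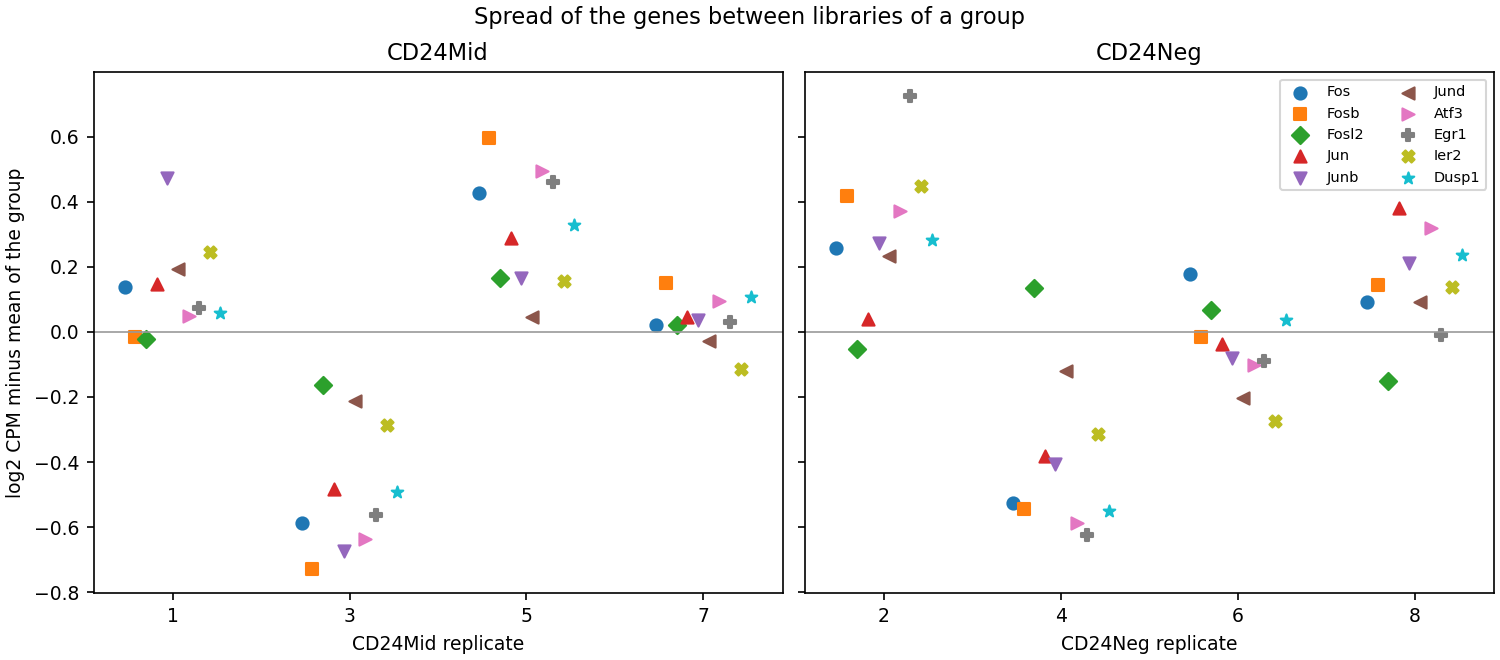
Log2 CPM of each gene minus the mean of its group, by library, for CD24Mid (left) and CD24Neg (right). All 10 genes lie below 0 in CD24Mid replicate 3, and 9 lie below 0 in CD24Neg replicate 4, where Fosl2 is the exception.

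The profile of Fos over the 8 libraries was most like that of Klf10, a rapidly induced zinc finger gene, with a root mean square distance of 0.12 on the centred log2 CPM scale among 7627 genes. Myo19, Fastkd1 and Jag1 came next for Fos, at 0.21 to 0.22. The nearest profiles to Atf3 were those of Dusp1 at 0.11, the stress-induced phosphatase cofactor Ppp1r15a at 0.14, the growth factor Hbegf at 0.20 and Jun at 0.21. For Jun they were Ppargc1b at 0.13, Ppp1r15a at 0.15, Myo19 at 0.15 and Dusp1 at 0.16.

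Of 38 other immediate early genes listed, 33 were tested, and edgeR called 10 for CD24Mid and 13 for CD24Neg while 10 did not pass, near the shares of all genes tested (35.5% and 34.3%). Their median log2 fold change was -0.13, against 0.015 over all genes. On library totals 22 were higher in CD24Mid and 6 in CD24Neg (69.8% and 12.9% of all genes). Without CD24Neg replicates 2 and 8 it was 10 and 9 of 35 tested (33.7% and 30.0% of all genes). The growth regulator Myc averaged 79.5 ± 9.55 CPM over the CD24Mid libraries and 7.26 ± 2.17 CPM over the CD24Neg libraries, a log2 fold change of 3.46 (adjusted p = 1.88e-07, edgeR). The matricellular gene Ccn1 (4.05-fold) and the mRNA decay factor Zfp36l2 (2.30-fold) were also higher in CD24Mid. Klf4, a factor of differentiated epithelium, was 3.23-fold higher in CD24Neg (57.2 ± 10.2 CPM in CD24Mid and 185 ± 34.3 CPM in CD24Neg, adjusted p = 6.37e-06, edgeR), and the growth arrest genes Gadd45a and Gadd45g were 2.38-fold and 2.67-fold higher there.

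Of 14 dimer partners and related leucine zipper genes listed, 11 were tested, and 1, Fosl1, was called for CD24Mid and 9 for CD24Neg by edgeR, against 35.5% and 34.3% of all genes tested. The counts were 1 and 6 under upper-quartile factors (43.6% and 27.3% of all genes), 6 and 2 on library totals (69.8% and 12.9%), and 1 and 7 without CD24Neg replicates 2 and 8 (33.7% and 30.0%). Their median log2 fold change was -0.49 against 0.015 over all genes, and on library totals 0.45 against 0.96. Batf2, which pairs with Jun proteins, was 4.11-fold higher in CD24Neg (9.99 ± 3.17 CPM in CD24Mid and 41.0 ± 8.89 CPM in CD24Neg, adjusted p = 1.36e-05, edgeR). The stress factor Ddit3 was 4.22-fold and the oxidative stress factor Nfe2l2 2.32-fold higher there.

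Of 24 upstream kinase genes listed, 21 were tested, and edgeR called 3 for CD24Mid and 11 for CD24Neg, against 35.5% and 34.3% of all genes tested. The counts became 8 and 11 under upper-quartile factors (43.6% and 27.3% of all genes), 15 and 1 on library totals (69.8% and 12.9%), and 2 and 11 without CD24Neg replicates 2 and 8 (33.7% and 30.0%). Their median log2 fold change was -0.51 against 0.015 over all genes, and on library totals 0.43 against 0.96. The ERK kinases Map2k1 and Map2k2 were 2.21-fold and 2.46-fold higher in CD24Neg (adjusted p = 1.81e-06 and 9.74e-06, edgeR), and the JNK kinase Map2k4 was 1.82-fold higher there. The p38 kinase Map2k6 was 2.49-fold higher in CD24Mid, and Braf 1.62-fold and Map2k7 1.18-fold (adjusted p = 1.27e-05, 0.012 and 0.047, edgeR).

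Of 8 genes for serum response factor and its cofactors, edgeR called 4 higher in CD24Mid and 3 in CD24Neg, where 69.8% of all genes tested were called (35.5% and 34.3%). Under upper-quartile factors this was 4 and 1 (43.6% and 27.3% of all genes). Without CD24Neg replicates 2 and 8 it was 3 and 1 (33.7% and 30.0%), and on library totals 6 and 0 (69.8% and 12.9%). Srf, which drives Fos and Egr1 through the serum response element, was 1.35-fold higher in CD24Mid (63.6 ± 6.52 CPM, against 47.1 ± 6.85 CPM in CD24Neg, adjusted p = 0.0092, edgeR). Its cofactors Mrtfb and Elk1 were 1.86-fold and 2.77-fold higher in CD24Mid, and Mrtfa and Elk4 were 1.34-fold and 1.28-fold higher in CD24Neg.

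Of 15 MAP kinase phosphatases and feedback inhibitors other than Dusp1, 13 were tested, and edgeR called 5 for CD24Mid and 4 for CD24Neg, near the shares of all genes tested (35.5% and 34.3%). On library totals these were 8 and 1 (69.8% and 12.9% of all genes), and without CD24Neg replicates 2 and 8 they were 7 and 4 of 15 (33.7% and 30.0%). Without a filter on low counts 8 were higher in CD24Mid, where the number of all genes called for CD24Mid was 5379, against 4557 with the filter. Dusp6, the ERK phosphatase, was 7.80-fold higher in CD24Neg (6.72 ± 1.65 CPM in CD24Mid and 52.4 ± 12.3 CPM in CD24Neg, adjusted p = 6.51e-07, edgeR), with Dusp5 at 1.70-fold and Dusp16 at 1.61-fold. Dusp7 (5.89-fold), Spred1 (2.94-fold) and Dusp4 (2.21-fold) were higher in CD24Mid.

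Heat shock genes, which are known to respond to tissue dissociation, were higher in CD24Mid for 8 of 12 tested (13 listed), against 35.5% of all genes. Upper-quartile factors gave 8 (43.6% of all genes) and library totals 11 (69.8%). In CD24Neg 1, Dnajb4, was higher by edgeR, against 34.3% of all genes. That count was also 1 under upper-quartile factors (27.3% of all genes) and on library totals (12.9%). Without CD24Neg replicates 2 and 8, 9 were higher in CD24Mid and 1 in CD24Neg (33.7% and 30.0% of all genes). The median log2 fold change was 1.14 over the list and 0.015 over all genes. Hspd1, Hspe1 and Hsp90ab1, chaperones of housekeeping as well as stress, were 3.36-fold, 3.08-fold and 3.15-fold higher in CD24Mid (adjusted p = 7.31e-07, 1.15e-06 and 2.23e-06, edgeR). The most stress-inducible genes, Hspa1a and Hspa1b, share near-identical sequence, so their reads are hard to tell apart. Hspa1b was called higher in CD24Mid with overlapping groups (log2 fold change 1.25 ± 0.43 SE, adjusted p = 0.023, edgeR). Hspa1a did not pass (log2 fold change 1.03 ± 0.53 SE, adjusted p = 0.11, edgeR). It stood at 70.2, 102, 53.1 and 137 CPM in CD24Mid replicates 1, 3, 5 and 7. In CD24Neg replicates 2, 4, 6 and 8 it stood at 24.6, 33.1, 15.7 and 105 CPM. Within CD24Mid it was lowest in replicate 5, where Fos was highest, but the list shared no such order. Hspa1b and Hspe1 were also lowest in replicate 5, and Hspa5, Dnaja1 and Dnajb4 in replicate 3, where Fos was lowest. The other tested genes of the list were lowest in replicate 1 or 7. Hspa1a, Hspa1b, Hspa5 and Dnaja1 were named after their values were seen. No cells that had not been dissociated were analysed here, so the part of dissociation was not tested.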

How the data were processed

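Libraries were grouped by their titles. Per the submitters' processing notes, the authors used Bowtie 0.12.8 and NCBIM37. The annotation, strand setting and filters were not stated. On the opposite strand Prdx2 overlaps Junb, Junos Jun, Gm11175 Jund and Ergic1 Dusp1, and without strand reads from the stretches they share cannot be told apart. Deposited counts are whole fragments that hit 1 gene alone, unnormalised, per the file headers. The deposited natural log estimates include shared reads, and with the deposited effective lengths and mapped fragments they were turned into estimated counts, rounded to whole numbers, a reading that rests on their values.

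Symbols came from GENCODE M21 and RefSeq by Ensembl ID (87.4% of IDs had one, Atf7 was not matched). The main test was edgeR 4.0.16 (R 4.3.3, quasi-likelihood, TMM, filterByExpr, no covariate), Benjamini-Hochberg adjusted over 12840 genes, threshold 0.05. On data simulated for this comparison (12612 genes after filtering) it recovered 9 of 47 genes with a true fold of 1.5, 36 of 49 at 2, 43 of 50 at 4 and 46 of 50 at 8, and called 6 of 12416 without a change. The simulation changed only a small share of genes, equally up and down, while 69.8% were called in the real data. Its recovery rates therefore need not hold for the real comparison. SE is the log2 fold change over the root of F. Alternatives were upper-quartile and relative log expression factors, library totals, DESeq2 1.42.0, no filter or 10 counts in 4 libraries, estimated counts, no mitochondrial genes, and each library left out. Profiles and spreads used log2 of CPM plus 0.5. Any 2 libraries of a group differed by more than sampling noise (chi-square per degree of freedom 11.6 or more). The labels do not say how many animals were used, so p-values measure the spread between these libraries.

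The members and lists were chosen with earlier results of these data known. Named genes were the members, Cd24a, up to 3 called genes per list and direction with the smallest adjusted p at a mean log2 CPM of 2 or more, and the 4 nearest profiles to Fos, Jun and Atf3 among genes at 4 or more. Outside this rule, Fosl1, Hspa1a, Hspa1b, Hspa5, Dnaja1 and the overlapping genes were named after their values were seen.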

Additional observations from a re-analysis of the deposited data

Results flagged for a closer look

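Of 50 sets of 4 libraries examined for a sample that stands apart (CPM, family share and ratio to Fos of the members, per population), 1 was found by Dixon's ratio, and chance alone marks about 1 in 20. Fosl2 had 31.1 reads per 100 Fos reads in CD24Neg replicate 4, against 15.8 to 18.2 in the other CD24Neg libraries. In that library Fos was the lowest of its group, at 479 CPM, and Fosl2 the highest, at 149 CPM.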

How the results depend on the processing

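The calls of Fosb, Fosl2 and Junb held under each alternative except library totals, where Junb had a log2 fold change of -0.18 and Fosl2 turned to 0.45. Library totals called 8959 genes for CD24Mid and 1659 for CD24Neg, with 9 and 0 of the members, 6 and 2 of the dimer partners, 22 and 6 of the other immediate early genes, 15 and 1 of the kinases, and 8 and 1 of the phosphatases, with 0 of the serum response list in CD24Neg. Log2 fold changes there were 1.24 for Fos, 1.22 for Ier2, 0.95 for Jun, 0.62 for Jund, 0.72 for Atf3 and 0.76 for Dusp1. This scaling moves the median of all genes to 0.96.

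Upper-quartile scaling gave 0.22 for Jun, -0.10 for Jund, 0.49 for Ier2 and 0.027 for Dusp1, with 8 kinases higher in CD24Mid and 1 gene of the serum response list in CD24Neg. Without a filter, which moved the median of all genes to 0.12, Jun was at 0.11 and Jund at -0.22, and 8 phosphatases were higher in CD24Mid. Estimated counts gave 0.010 for Jun and -0.32 for Jund, and estimated counts and DESeq2 each called 2 heat shock genes higher in CD24Neg. Without mitochondrial genes Jun was at 0.029 and Jund at -0.29. Without CD24Neg replicates 2 and 8, added after the data were seen, Jun was at 0.24, Jund at -0.13, Atf3 at 0.16, Ier2 at 0.62 and Dusp1 at 0.089, with 1 gene of the serum response list higher in CD24Neg. Without division by length the Fosb and Fosl2 share differences were 9.97 and -6.34 percentage points, against 6.30 and -2.54.

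With each library left out in turn, members higher in CD24Mid numbered 1 to 3 (1, Fosb, without CD24Mid replicate 5). Heat shock genes higher in CD24Neg numbered 1 to 2 (2 without CD24Mid replicate 7). Among all genes, those fits called 4346 to 4797 for CD24Mid and 4057 to 4430 for CD24Neg. Log2 fold changes ran from -0.095 to 0.19 for Jun, -0.39 to -0.20 for Jund, 0.66 to 1.17 for Egr1 and 0.19 to 0.48 for Ier2, and the difference in Jund share from -0.40 to 2.48 percentage points. The other 449 values recomputed kept their direction and call, or a like count. No paired analysis was possible because the populations share no replicate number, and the labels do not say whether neighbouring numbers belong together. The cause of these shifts was not tested.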
